A study of Homo sapiens with 18 samples.

Results

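The 8 genes described here encode dual-specificity phosphatases of the MAP kinase pathway: DUSP1, DUSP2, DUSP4, DUSP5, DUSP6, DUSP10, DUSP16 and DUSP22. They were chosen by symbol, as 8 of the 17155 genes in the deposited table. No measured value served as a filter, but earlier results of these data were known when the choice was made. The table holds 22 genes with a DUSP symbol in all. RNA was measured by poly(A)-selected sequencing in GM12878, an established lymphoblastoid line made by infecting human B cells with Epstein-Barr virus. The virus protein LMP1, which switches on NF-κB signalling in such cells, is wild type in every group per the labels. Cells received a lentivirus carrying a guide RNA and then spent 5 days in puromycin at 3 µg/ml. The control group carried a non-targeting guide, and the 5 other groups carried a guide against p50, p52, RelA, RelB or cRel, the DNA-binding subunits of NF-κB. Each group has 3 libraries, labelled as biological replicates, which makes 18. The labels say that loss of each subunit was checked by immunoblot. They do not say whether a group is a pool of transduced cells or a clone, so the p-values measure the spread between these libraries.

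MAP kinases (ERK, JNK and p38) are active only while both a threonine and a tyrosine in their activation loop carry phosphate. Typical dual-specificity MAP kinase phosphatases remove both phosphates and so switch the kinase off. Many of their genes are themselves induced by MAP kinase activity. Neither is claimed here for DUSP22. DUSP1, DUSP2, DUSP4 and DUSP5 are nuclear and inducible, DUSP6 is cytoplasmic and prefers ERK, DUSP10 and DUSP16 prefer JNK and p38, and DUSP22 is a small atypical member without the MAP kinase-binding domain.

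Values are the authors' normalised read counts, that is, reads per gene divided by 1 scaling factor per library. Libraries held 15179664 to 37473129 reads. In 3 of them (control 3, p52 3 and RelA 2) long genes sat lower than in the other libraries of the same group, with rank correlations of deviation and exonic length across genes of -0.45, -0.38 and -0.31. Transcripts of the targeted subunits NFKB1, NFKB2 and RELA were lower in the p50, p52 and RelA knockouts than in the controls. This was not particular to the targeted group. NFKB1 and NFKB2 were also lower in the RelA knockout, and NFKB1 in the libraries labelled RelB (limma adjusted p under 0.05 in each). RELB was higher in the libraries labelled RelB (4107 ± 170, SD, n = 3) than in the controls (3319 ± 158). Its log2 fold change was 0.31 (limma adjusted p = 1.7e-04). RELB was also higher in the libraries labelled cRel (4322 ± 243), p52 (4260 ± 49.4) and p50 (3894 ± 196), and lower in those of RelA (1887 ± 127). Each of these passed the same test at 0.05. REL was at 1298 ± 16.6 in the libraries labelled cRel and at 1376 ± 457 in the controls (limma adjusted p = 0.96). The single values were 1298, 1315 and 1282 against 1554, 1717 and 856. All cRel-labelled values lay below control libraries 1 and 2 and above control library 3, which stands apart by length. A lower REL level in these libraries is therefore neither shown nor excluded. The groups whose own subunit RNA was not called lower are named RelB-labelled and cRel-labelled below. RNA levels do not show whether the protein was lost, which the labels say was checked by immunoblot. The names are thus no statement that these knockouts failed. All 8 B-cell markers examined were abundant in every library, while the T-cell gene CD3D reached at most 1.63 and the monocyte gene CD14 at most 3.16. Not all markers of other cells were low: COL1A1, a collagen gene, lay between 706.6 and 1570. The RelB-labelled libraries had a higher sum of T and NK cell markers (682 to 758, against 416 to 556 in the controls) and of monocyte markers (738 to 777, against 388 to 422), carried mostly by NKG7 and CSF1R. The monocyte sum was also higher in the p50 (627 to 704) and p52 (597 to 696) knockouts. The T and NK sum was lower in the cRel-labelled libraries (333 to 363). The fibroblast and epithelial sum was lower in p50 (759 to 1055, against 1178 to 1377 in the controls). The part of these differences in the results was not tested. In such bulk samples fewer cells that express a gene and less RNA per cell cannot be told apart.

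The phosphatases did not move as a block: some rose while others fell in every comparison but that of the RelA knockout, in which DUSP2 was the only one called. A gene was called when limma, fitted to log2(value + 1) over all 18 libraries, gave a Benjamini-Hochberg adjusted p under 0.05 among the 12381 genes whose mean reached 10. Of the 8 genes, 7 passed that filter and DUSP6 did not. In the cRel-labelled libraries 3 of 7 were called, 2 higher and 1 lower, where 6.09% of all genes were called (4.17% higher and 1.92% lower). In the p50 knockout 5 of 7 were called, 2 higher and 3 lower (36.7% of all genes, 17.0% higher and 19.6% lower). In the p52 knockout 5 of 7 were called, 3 higher and 2 lower (50.8%, 24.5% higher and 26.4% lower). In the RelA knockout 1 of 7 was called, lower (5.55%, 2.92% higher and 2.63% lower). In the RelB-labelled libraries 6 of 7 were called, 4 higher and 2 lower (67.8%, 33.1% higher and 34.7% lower), a share near that of all genes. The median log2 fold change of the 7 genes was 0.05 in the cRel-labelled libraries, -0.13 in p50, -0.03 in p52, -0.001 in RelA and 0.40 in the RelB-labelled libraries, while that of all genes lay between -0.02 and 0.002 in each. All 5 comparisons share the 3 control libraries.

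**Figure D1:**
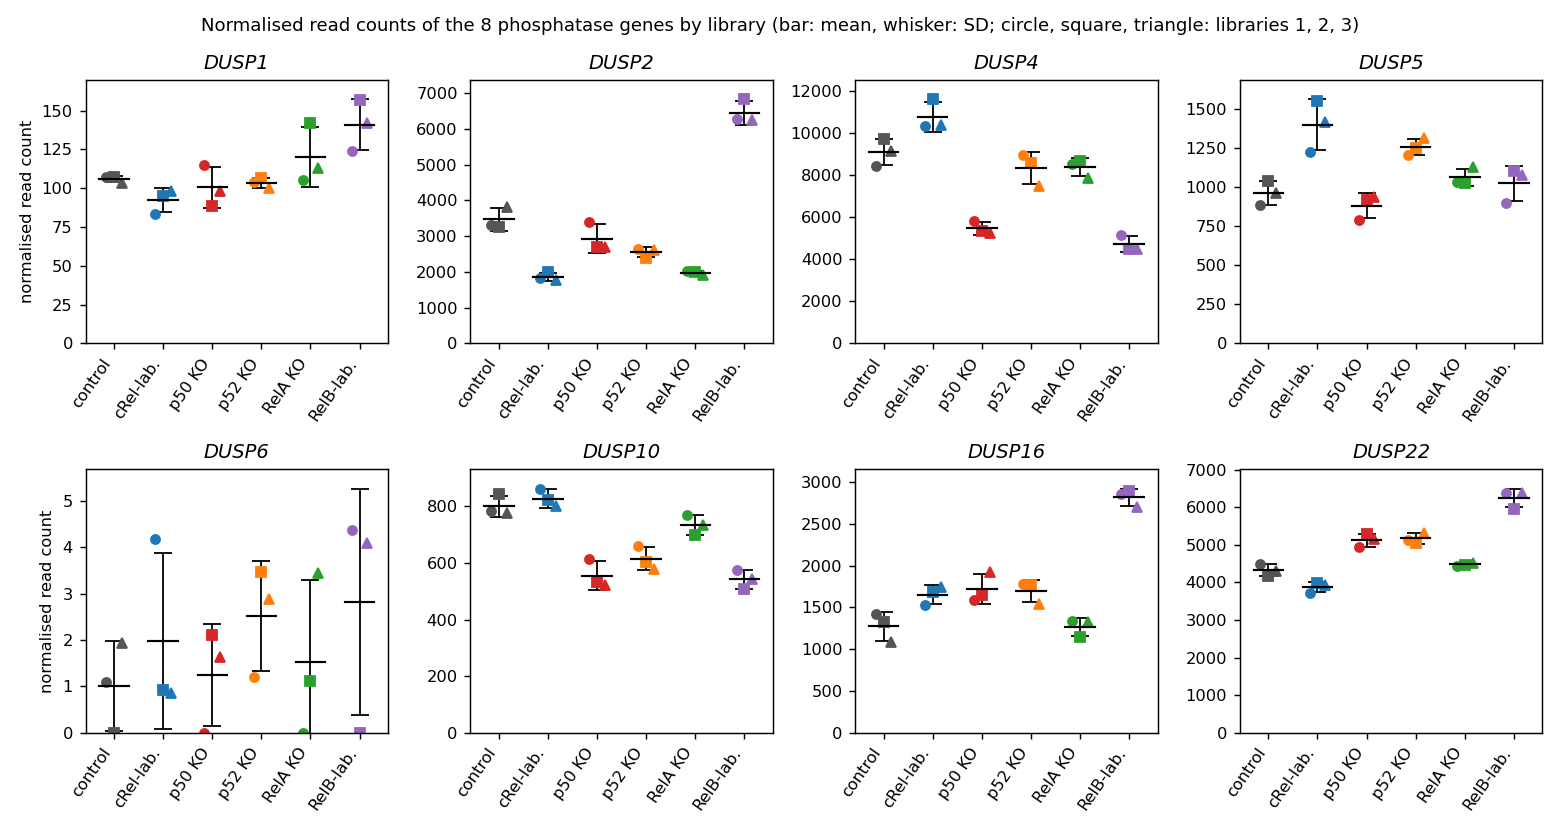
Normalised read counts (y axes, each from 0) of the 8 genes in the 18 libraries, grouped on the x axis ("lab." stands for labelled, KO for knockout), with circles, squares and triangles for libraries 1, 2 and 3, bars for means and whiskers for SD (n = 3). DUSP2, DUSP16 and DUSP22 were highest and DUSP4 lowest in the RelB-labelled libraries, and DUSP6 stayed under 5 in every library.

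DUSP2, also called PAC-1, is a nuclear phosphatase typical of activated lymphocytes, and it had the widest range of the 7 genes. The control libraries had normalised counts of 3305, 3266 and 3828. The cRel-labelled libraries had 1825, 1993 and 1774, and the RelA knockout libraries had 2015, 1992 and 1922. Both of these groups lay wholly below the controls. The p52 knockout libraries had 2638, 2388 and 2626. The p50 knockout libraries had 3396, 2706 and 2691. The RelB-labelled libraries had 6270, 6829 and 6235. The RelB-labelled group lay wholly above every other library and the p52 group wholly below the controls, while p50 library 1 lay among the controls. The log2 fold change against control was -0.89 ± 0.08 (SE) in the cRel-labelled libraries (limma adjusted p = 1.7e-07), a 1.86-fold lower level. It was -0.81 ± 0.08 in the RelA knockout (adjusted p = 7.8e-07) and -0.44 ± 0.08 in the p52 knockout (adjusted p = 1.1e-04). DUSP2 rose 1.86-fold in the RelB-labelled libraries, by 0.90 ± 0.08 (adjusted p = 2.4e-09). DUSP2 was the only one of the 7 genes called in all 5 comparisons.

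The fall of DUSP2 in the p50 knockout was small (-0.25 ± 0.08, adjusted p = 0.021) and rested on single libraries. It was not called without control library 3 (-0.17, adjusted p = 0.12), without p50 library 2 (-0.19, adjusted p = 0.11) or without p50 library 3 (-0.19, adjusted p = 0.115). Without the 3 libraries that stand apart by length it was -0.17 (adjusted p = 0.101). In order of level, the cRel-labelled and RelA groups were lowest and did not differ from each other (0.09, adjusted p = 0.63). The p52 and p50 knockouts came next and did not differ from each other at the threshold (0.19, adjusted p = 0.093), although their libraries did not overlap. Between the cRel-labelled and RelB-labelled libraries the difference was 1.79 ± 0.08 (3.46-fold, adjusted p = 6.6e-14).

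DUSP4, also called MKP-2, is a nuclear phosphatase of ERK and JNK. Normalised counts were 8446, 9706 and 9142 in the controls. The p50 knockout libraries had 5814, 5369 and 5243, and the RelB-labelled libraries had 5156, 4509 and 4495. Both groups were wholly below the controls, and the RelB-labelled libraries wholly below the p50 libraries. Loss of p50 came with a DUSP4 level that fell by 0.73 ± 0.08 on the log2 scale (adjusted p = 4.0e-07), and in the RelB-labelled libraries it fell by 0.95 ± 0.08 (1.93-fold, adjusted p = 4.0e-10). The p52 knockout libraries had 8944, 8587 and 7471 and the RelA knockout libraries 8553, 8692 and 7892. Each of these groups overlapped the controls, with log2 differences of -0.13 (adjusted p = 0.17) and -0.12 (adjusted p = 0.42). The cRel-labelled libraries had 10348, 11616 and 10387, all above the controls, with a difference of 0.25 ± 0.08 that missed the threshold (adjusted p = 0.060). That difference was called by edgeR on the recovered reads (adjusted p = 0.0381) and by DESeq2 (0.0308). In limma it was called under TMM scaling (adjusted p = 0.0396), quantile normalization (0.0325) and a replicate block (0.0298). It was also called without control library 2 (0.0385), p52 library 1 (0.0479) or p52 library 3 (0.026). DUSP4 differed in 9 of the 10 pairs of knockout groups, all but p52 against RelA.

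DUSP5 is a nuclear phosphatase selective for ERK. Normalised counts were 888, 1039 and 964 in the controls. The cRel-labelled libraries had 1229, 1556 and 1417, and the p52 knockout libraries had 1208, 1252 and 1313. Every library of these 2 groups was above every control library. DUSP5 rose by 0.54 ± 0.09 in the cRel-labelled libraries (1.45-fold, adjusted p = 5.6e-04) and by 0.39 ± 0.09 in the p52 knockout (1.31-fold, adjusted p = 0.0013). The p50 knockout (790, 919 and 936), the RelA knockout (1035, 1031 and 1128) and the RelB-labelled libraries (897, 1103 and 1076) overlapped the controls. Their log2 differences were -0.13, 0.15 and 0.09, with adjusted p of 0.28, 0.40 and 0.41. DUSP5 was the 1 gene of the 7 not called in the RelB-labelled libraries. DUSP5 differed in 7 of the 10 pairs of knockout groups.

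DUSP1, also called MKP-1, is an immediate-early nuclear phosphatase of p38, JNK and ERK. Its counts were low, at 107, 107 and 103 in the controls. The RelB-labelled libraries had 124, 157 and 142, all above the controls. The rise of 0.40 ± 0.13 (1.32-fold, adjusted p = 0.0100) was its only call against control. That call was lost without RelB-labelled library 2 (0.32, adjusted p = 0.0596) and under quantile normalization (0.13, adjusted p = 0.411). DUSP1 differed in 3 of the 10 pairs of knockout groups, being higher in the RelB-labelled libraries than in the cRel-labelled, p50 and p52 ones. The cRel-labelled libraries (83.3, 95.2 and 98.3) lay below the controls, with a difference of -0.20 ± 0.13 that did not pass (adjusted p = 0.40). The p50 (115, 88.5 and 98.0), p52 (104, 106 and 100.1) and RelA (105, 142 and 113) knockouts overlapped the controls.

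DUSP6, a cytoplasmic phosphatase selective for ERK, was close to undetected. All 18 libraries together held 33 reads of it, with at most 4 reads in one library and none in 4 libraries. Its mean normalised count was 1.85, and no fold change is given.

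The 2 phosphatases that prefer JNK and p38 moved in opposite directions. DUSP10, also called MKP-5, had normalised counts of 783, 844 and 776 in the controls. The p50 knockout libraries had 613, 533 and 520, those of p52 had 660, 605 and 580, and the RelB-labelled ones had 575, 508 and 544. All 9 of these libraries were below every control library. DUSP10 fell by 0.53 ± 0.08 in p50 (adjusted p = 1.9e-05), by 0.38 ± 0.08 in p52 (adjusted p = 2.5e-04) and by 0.56 ± 0.08 in the RelB-labelled libraries (adjusted p = 1.1e-06). In the RelA knockout it was 769, 700 and 735, again below every control library, but the difference of -0.12 ± 0.08 did not pass (adjusted p = 0.38). The cRel-labelled libraries (863, 821 and 800) overlapped the controls, with a difference of 0.05 (adjusted p = 0.76). The 3 groups in which it fell did not differ from each other at the threshold (adjusted p = 0.74, 0.18 and 0.057).

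DUSP16, also called MKP-7, had normalised counts of 1417, 1319 and 1080 in the controls. The RelB-labelled libraries had 2859, 2891 and 2695, all above every other library. This was a rise of 1.15 ± 0.09 (2.23-fold, adjusted p = 4.0e-10), the widest difference from control among the 7 genes. The p50 knockout libraries had 1583, 1645 and 1927, the p52 knockout libraries 1782, 1763 and 1540 and the cRel-labelled libraries 1526, 1679 and 1747. All of these lay above the controls, by 0.44 ± 0.09 in p50 (adjusted p = 9.4e-04), 0.42 ± 0.09 in p52 (adjusted p = 6.9e-04) and 0.38 ± 0.09 in the cRel-labelled libraries (adjusted p = 0.013). At the threshold the 3 groups did not differ from each other (adjusted p of 0.69, 0.77 and 0.92). The cRel-labelled rise was not called without control library 3 (0.27, adjusted p = 0.108), without cRel-labelled library 2 (0.37, adjusted p = 0.0582) or without cRel-labelled library 3 (0.34, adjusted p = 0.0865). The RelA knockout (1333, 1144 and 1321) was level with the controls, with a difference of -0.001 (adjusted p = 0.997).

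DUSP22, an atypical phosphatase also called JKAP, had normalised counts of 4495, 4174 and 4313 in the controls. The p50 knockout libraries had 4931, 5284 and 5144, the p52 knockout libraries 5129, 5060 and 5319, and the RelB-labelled libraries 6388, 5957 and 6393. Each of these groups lay wholly above the controls, and the RelB-labelled group above all others. DUSP22 rose by 0.24 ± 0.05 in p50 (adjusted p = 0.0013), by 0.26 ± 0.05 in p52 (adjusted p = 3.8e-04) and by 0.53 ± 0.05 in the RelB-labelled libraries (1.44-fold, adjusted p = 1.4e-08). The RelA knockout libraries had 4448, 4477 and 4524 and overlapped the controls (0.05, adjusted p = 0.64). The cRel-labelled libraries had 3720, 3988 and 3922, all below the controls, with a difference of -0.16 ± 0.05 that did not pass in limma (adjusted p = 0.086) and did in DESeq2 (-0.15, adjusted p = 0.0357). DUSP22 differed in 9 of the 10 pairs of knockout groups, all but p50 against p52.

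**Figure D2:**
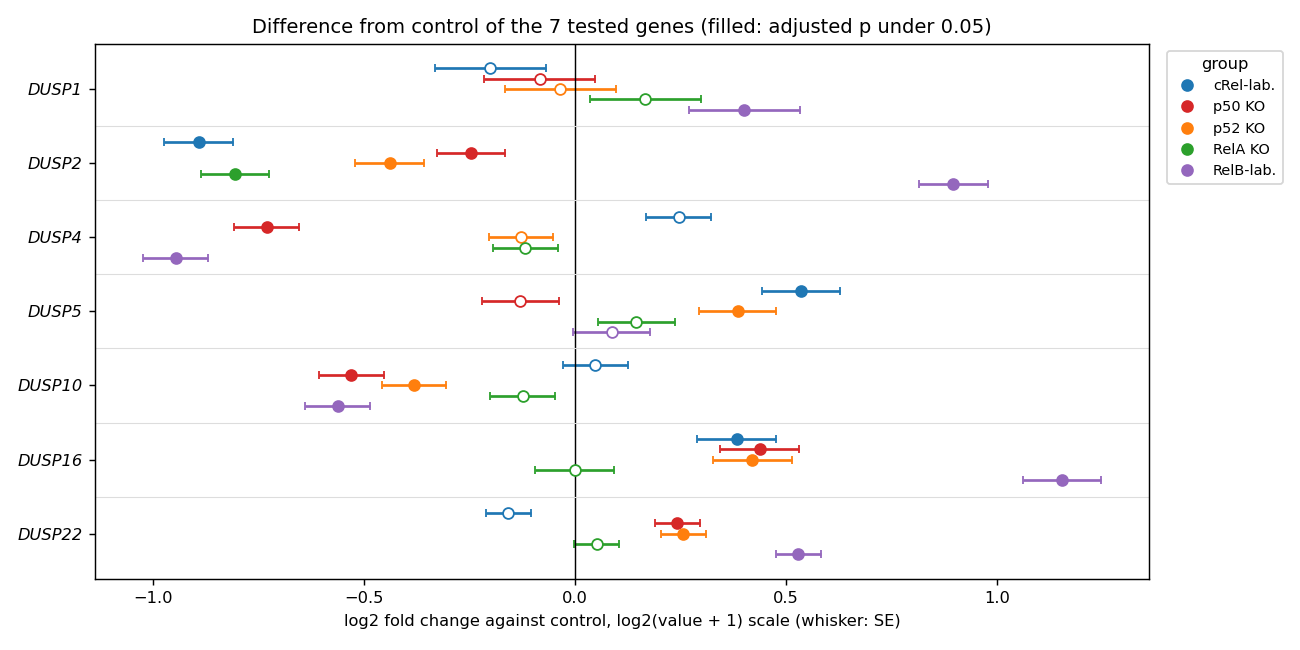
Log2 fold change against control (x axis, log2(value + 1) scale) of the 7 tested genes (y axis), with 1 point per comparison, whiskers of SE and filled points where the adjusted p was under 0.05. Only DUSP2 has filled points on both sides of 0, and DUSP16 in the RelB-labelled libraries lies farthest from it, at 1.15.

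Counted by whether groups overlapped, 6 of 7 genes stood wholly apart from the controls in the cRel-labelled libraries (26.7% of all genes did), 4 in p50 (45.0%), 5 in p52 (52.5%), 2 in RelA (22.0%) and 6 in the RelB-labelled libraries (70.0%). The cRel-labelled count held 3 genes that missed the threshold, namely DUSP1, DUSP4 and DUSP22. An F-test for any difference among the 5 knockout groups, without the controls, called 7 of 7 genes, where 78.8% of all genes were called. Its adjusted p ran from 1.5e-13 for DUSP2 to 0.0021 for DUSP1. Each of the 7 genes was tested in the 10 pairs of knockout groups, and 49 of these tests were called. Of the 10 pairs, 3 were called for DUSP1, 6 for DUSP10 and 7 each for DUSP5 and DUSP16. For DUSP2 8 were called, and for DUSP4 and DUSP22 9 each. Over all genes 43.33% of such tests were called. The cRel-labelled and RelB-labelled libraries differed in 7 of 7 genes (65.8% of all genes): DUSP1, DUSP2, DUSP16 and DUSP22 were higher and DUSP4, DUSP5 and DUSP10 lower in the RelB-labelled libraries. The p50 and p52 knockouts differed in 2 of 7, both higher in p52 (22.2% of all genes). These were DUSP4, by 0.60 ± 0.08 (adjusted p = 4.9e-06), and DUSP5, by 0.52 ± 0.09 (adjusted p = 2.8e-04). The RelA knockout and the cRel-labelled libraries differed in 4 of 7 (11.0% of all genes). DUSP22 was higher in the RelA knockout by 0.21 ± 0.05 (adjusted p = 0.011), and DUSP4, DUSP5 and DUSP16 were lower there (log2 differences of -0.36, -0.39 and -0.38, adjusted p = 0.0023, 0.0058 and 0.0077).

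Levels of different genes were compared as normalised reads per kb of exon, with exonic lengths from GENCODE 29. In the controls DUSP2 was highest at 1794 ± 162 (SD, n = 3), before DUSP4 at 1254 ± 87.0, DUSP22 at 761 ± 28.3, DUSP5 at 369 ± 28.9, DUSP10 at 275 ± 12.9, DUSP16 at 222 ± 30.3 and DUSP1 at 52.5 ± 1.09. DUSP6 was at 0.219 ± 0.210. In the cRel-labelled libraries the order of the leading pair was exchanged, with DUSP4 at 1486 and DUSP2 at 965.

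The ratio of DUSP2 to DUSP4 per kb showed this in each library. It lay between 1.26 and 1.57 in the controls, 0.641 and 0.663 in the cRel-labelled libraries and 0.861 and 0.915 in the RelA knockout. It lay between 1.04 and 1.32 in the p52 knockout, 1.89 and 2.19 in the p50 knockout and 4.57 and 5.69 in the RelB-labelled libraries. The p52 range overlapped that of the controls, and each of the other ranges lay apart from all others. Per kb, DUSP2 was thus the lower of the pair in the 6 cRel-labelled and RelA knockout libraries and the higher in the other 12. This split depends on the exonic lengths used, 1932 bases for DUSP2 and 7257 for DUSP4. In normalised counts DUSP4 was the higher in every group but the RelB-labelled one (9098 against 3466 in the controls). The order of the groups by the ratio does not depend on the lengths.

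**Figure D3:**
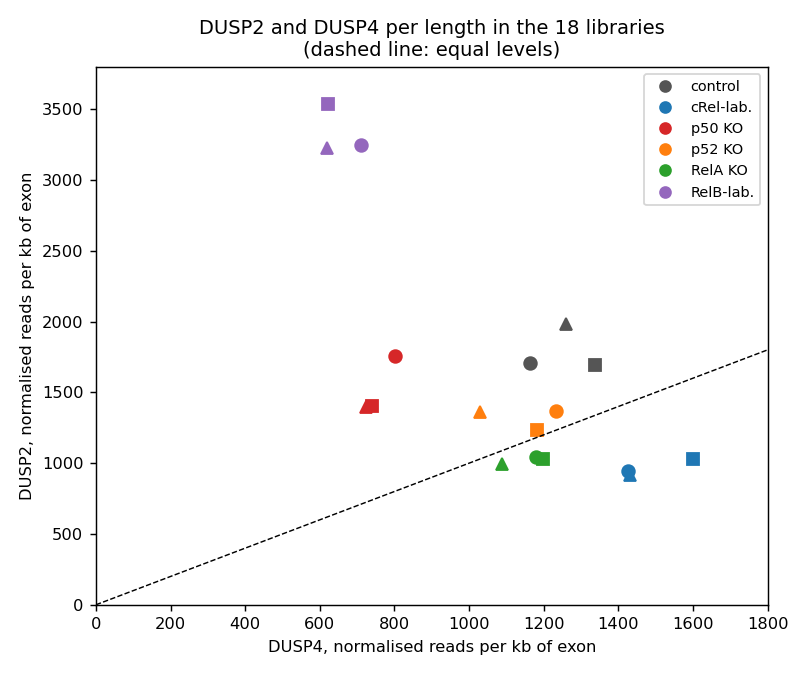
DUSP2 (y axis) against DUSP4 (x axis), both as normalised reads per kb of exon, in the 18 libraries, with circles, squares and triangles for libraries 1, 2 and 3 and a dashed line of equal levels. The cRel-labelled and RelA libraries lie below the line, and the RelB-labelled libraries lie far above it at ratios of 4.57 to 5.69. Where the line falls among the libraries depends on the exonic lengths used.

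Summed over the 8 genes per kb, the level was 4727 ± 151 in the controls and 6225 ± 141 in the RelB-labelled libraries. It was 4287 ± 235 in the cRel-labelled libraries, 4050 ± 192 in p50, 4418 ± 116 in p52 and 3906 ± 51.6 in RelA. DUSP2 made up 37.9% ± 2.5 of the sum in the controls, 22.5% ± 0.632 in the cRel-labelled libraries and 53.6% ± 1.58 in the RelB-labelled libraries. DUSP4 made up 26.5% ± 1.52, 34.7% ± 0.596 and 10.5% ± 0.922 in the same groups. These sums rest mainly on DUSP2, DUSP4 and DUSP22 and were not tested. Their order depends on the scaling by length: summed without it, the cRel-labelled libraries were above the controls (20498 ± 1117 against 20035 ± 529), and p50 (16783 ± 397), not RelA (18025 ± 338), was lowest.

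**Figure D4:**
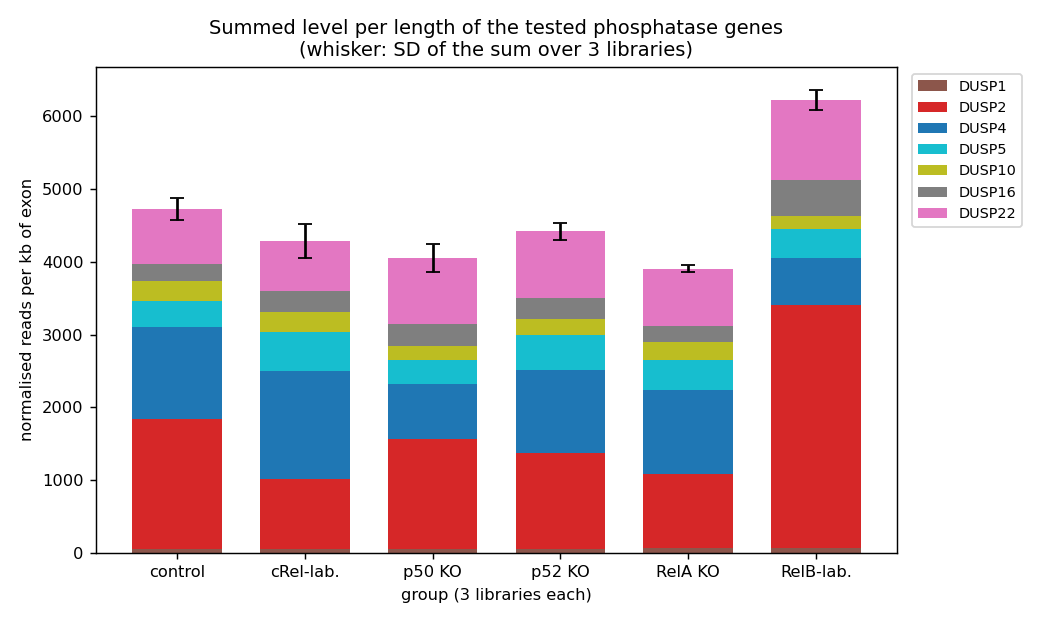
Summed normalised reads per kb of exon (y axis, from 0) in the 6 groups (x axis), stacked by gene, with whiskers for the SD of the sum (n = 3). The RelB-labelled stack is the highest at 6225, with DUSP2 as its largest band, and the RelA stack is the lowest at 3906.

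Promoter sequences are shown for DUSP2, which had the widest range, and for DUSP10, DUSP16 and DUSP22, which were called in the p50, p52 and RelB-labelled comparisons alike. They are RefSeq windows of 250 bases before to 50 bases after the annotated start site on GRCh38.p14, printed 5′ to 3′ along the gene. The RefSeq table matched 6 of the 8 genes, with 7 entries, and DUSP4 and DUSP5 were not among them. DUSP2 lies on the minus strand at chr2:96145391-96145690, DUSP10 (the upstream of 2 entries) on the minus strand at chr1:221742040-221742339, DUSP16 on the minus strand at chr12:12562814-12563113 and DUSP22 on the plus strand at chr6:292237-292536. Capitals mark the E-box CACGTG.
DUSP2: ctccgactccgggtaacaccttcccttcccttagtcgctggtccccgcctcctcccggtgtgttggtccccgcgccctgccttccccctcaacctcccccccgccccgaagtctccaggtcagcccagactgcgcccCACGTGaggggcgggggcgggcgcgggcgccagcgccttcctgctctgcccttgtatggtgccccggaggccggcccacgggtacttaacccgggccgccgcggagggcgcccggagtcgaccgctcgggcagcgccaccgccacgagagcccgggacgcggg
DUSP10: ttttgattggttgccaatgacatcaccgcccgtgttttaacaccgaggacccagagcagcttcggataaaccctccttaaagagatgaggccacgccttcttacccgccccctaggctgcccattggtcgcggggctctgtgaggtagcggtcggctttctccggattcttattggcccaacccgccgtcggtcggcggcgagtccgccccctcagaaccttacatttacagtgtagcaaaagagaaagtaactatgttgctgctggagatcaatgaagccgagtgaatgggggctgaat
DUSP16: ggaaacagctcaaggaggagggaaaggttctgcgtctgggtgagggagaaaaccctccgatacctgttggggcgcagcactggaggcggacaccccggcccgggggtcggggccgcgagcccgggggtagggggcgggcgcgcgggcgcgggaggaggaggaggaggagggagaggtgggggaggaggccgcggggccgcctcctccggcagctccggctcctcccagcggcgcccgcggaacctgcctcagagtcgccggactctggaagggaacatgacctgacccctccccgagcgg
DUSP22: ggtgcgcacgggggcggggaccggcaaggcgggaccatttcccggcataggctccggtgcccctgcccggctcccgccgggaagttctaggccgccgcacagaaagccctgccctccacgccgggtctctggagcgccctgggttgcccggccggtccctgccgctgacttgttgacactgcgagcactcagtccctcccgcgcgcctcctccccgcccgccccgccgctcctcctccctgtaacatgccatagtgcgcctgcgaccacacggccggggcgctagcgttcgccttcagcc

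Both strands of each window were searched for 5 motifs. The NF-κB consensus matched none of the 7 entries and 11.27% of all 35116 RefSeq promoter windows of the same length. The AP-1 motif TGANTCA also matched none of the 7 and 7.709% of all windows. The E-box matched 7.256% of all windows and was in those of DUSP2, starting 113 bases before the start site, and DUSP1, starting 108 bases before it. The cAMP response element TGACGTCA, in 1.848% of all windows, was in that of DUSP1, starting 125 bases before the start site. The GC box GGGCGG, in 44.95% of all windows, was in every entry but that of DUSP6. A missing match says only that these letters are not in this window.

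For the 3 genes with the widest range of group means, the most similar profiles were looked for among the 12374 other tested genes. Likeness was the root mean square difference of centred log2(value + 1) over the 18 libraries, as a description. For DUSP2, whose own root mean square deviation was 0.60, these were IFI30 (0.25), CD80 (0.28) and MICA (0.29). For DUSP4 (own value 0.43) they were ELL2 (0.13), ABCA6 (0.16) and CYB561A3 (0.18). For DUSP16 (own value 0.40) they were BTAF1 (0.10), ZNF609 (0.11) and GPR63 (0.11). The DUSP4 and DUSP16 profiles thus had closer neighbours than that of DUSP2. IFI30 was low, with a mean of 39.1 over the 18 libraries, and was called against control only in the RelB-labelled libraries. CD80, a costimulatory ligand of B cells, had mean normalised counts of 1011 in the controls and 2561 in the RelB-labelled libraries. Its means of 836 in the cRel-labelled and 948 in the RelA libraries were not called lower (limma adjusted p = 0.051 and 0.55). Unlike DUSP2, which fell there, CD80 was higher than control in p50 (1277, adjusted p = 0.0032) and p52 (1165, adjusted p = 0.0497). ELL2, a transcription elongation factor, had 2871 in the controls, 3064 in the cRel-labelled, 1890 in the p50, 2329 in the p52, 2618 in the RelA and 1529 in the RelB-labelled libraries.

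The remaining phosphatases of the family included 15 tested genes, among them slingshot phosphatases and the pseudophosphatases STYX and STYXL1. In the cRel-labelled libraries 1 rose and 0 fell, in p50 3 rose and 1 fell, in p52 8 rose and 1 fell, in RelA 1 rose and 0 fell, and in the RelB-labelled libraries 7 rose and 3 fell. The shares of all genes called in these comparisons were 6.09%, 36.7%, 50.8%, 5.55% and 67.8%, and the list counts below are to be read against them. A gene named from a list is given in the comparison in which it had the smallest adjusted p of that list, and may have been called in other comparisons too. SSH2, a phosphatase of cofilin, was at 1348, 1488 and 1194 in the controls and at 3157, 3084 and 3088 in the RelB-labelled libraries (1.22 ± 0.08 on the log2 scale, adjusted p = 1.3e-11). DUSP3, also called VHR, rose by 0.49 in p50 and by 0.69 in p52 (adjusted p = 2.2e-04 and 1.5e-06), and by 0.51 in the RelB-labelled libraries (adjusted p = 3.7e-05). DUSP7, a cytoplasmic ERK phosphatase, was the gene that rose in the RelA knockout, by 0.28 (adjusted p = 0.031), and it rose by 0.47 in p52 (adjusted p = 2.0e-05). The single riser in the cRel-labelled libraries, DUSP8, was named after its values were seen and was low, at a mean of 30.6 against 13.6 in the controls. The median log2 fold change of the 15 was 0.23 in p52 and 0.42 in the RelB-labelled libraries.

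Among the MAP kinases, MAPK14, the p38α kinase, was called in none of the 5 comparisons, with log2 differences between -0.16 and 0.10. MAPK3, encoding ERK1, rose by 0.18 after loss of p52 (adjusted p = 0.041) and by 0.50 in the RelB-labelled libraries (adjusted p = 1.7e-06). MAPK8, encoding JNK1, fell by 0.19 in p50 (adjusted p = 0.027) and rose by 0.26 in p52 (adjusted p = 0.0022). MAPK9, encoding JNK2, rose by 0.16 in the RelB-labelled libraries (adjusted p = 0.032). Of the 12 MAP kinases tested, 0 were called in the cRel-labelled libraries, 5 rose and 1 fell in p50, 6 rose and 2 fell in p52, 1 rose in RelA, and 7 rose and 0 fell in the RelB-labelled libraries, where 67.8% of all genes were called. Other kinases called included MAPK11 in p52 (433 ± 34.8 to 848 ± 47.4) and MAPK12 in p50 (762 ± 65.8 to 1058 ± 80.8).

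Upstream of the kinases, 7 MAP kinase kinases were tested. MAP2K6, an activator of p38, was at 656, 695 and 695 in the controls and at 214, 233 and 256 in the RelB-labelled libraries, without overlap. It fell by 1.54 ± 0.08 there (2.91-fold, adjusted p = 4.0e-13), by 0.46 in p52 (adjusted p = 4.5e-05) and by 0.21 in p50 (adjusted p = 0.043). MAP2K3, another p38 activator, fell by 0.36 in the RelA knockout (adjusted p = 0.0012), the only call among the 7 there. It also fell by 0.23 in the RelB-labelled libraries (adjusted p = 0.0032). Of 16 MAP3K and RAF kinases, 1 rose in the cRel-labelled libraries, MAP3K5 (0.45, adjusted p = 7.4e-04). In p50 5 rose and 2 fell, in p52 6 rose and 2 fell, in RelA 0 were called, and in the RelB-labelled libraries 6 rose and 3 fell. Of 17 RAS proteins, exchange factors and GTPase activators, 8 rose and 7 fell in the RelB-labelled libraries, where 33.1% of all genes were called higher and 34.7% lower. In the cRel-labelled libraries 1 of this list rose and 1 fell, while 5 rose and 3 fell in p50, 8 rose and 3 fell in p52, and 1 rose and 2 fell in RelA. The RelB-labelled mean of RASGRP1, an exchange factor for RAS, was 1396 ± 57.4, above its control mean of 541 ± 46.3, and this difference was called. RASGRP2 fell in the cRel-labelled libraries from 432 ± 44.4 to 254 ± 17.7.

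A list of early genes linked to ERK did not move one way either. It also holds the transcription factor genes ELK1, ELK3 and ELK4, for which induction by ERK is not claimed here. All of these ELK genes rose in p52, and ELK1 rose in the RelB-labelled libraries. In the cRel-labelled libraries 2 of the 21 tested genes of the list rose and 1 fell. In the other groups 3 rose and 6 fell in p50, 9 rose and 6 fell in p52, 1 rose and 4 fell in RelA, and 6 rose and 8 fell in the RelB-labelled libraries. Of all genes, 6.09% were called in the cRel-labelled comparison, 36.7% in p50, 50.8% in p52, 5.55% in RelA and 67.8% in the RelB-labelled one. IER3, an early response gene, was at 1896, 1853 and 1945 in the controls and at 411, 498 and 480 in the RelB-labelled libraries, a fall of 2.04 ± 0.08 (adjusted p = 1.1e-14). EGR2, an early zinc-finger factor, fell from 728 ± 34.4 to 349 ± 47.6 in p50 (adjusted p = 7.8e-07), and was lower in p52, RelA and the RelB-labelled libraries too (-0.88, -0.41 and -0.47, adjusted p = 2.1e-06, 0.039 and 0.0013). CCND1, encoding cyclin D1, rose from 473 ± 50.3 to 1185 ± 108 in p52 (adjusted p = 3.4e-10), and was higher in the cRel-labelled, p50 and RelB-labelled libraries too (0.44, 0.51 and 0.36, adjusted p = 0.0025, 1.1e-04 and 9.8e-04). Of the 6 tested SPRY and SPRED inhibitors of ERK signalling, 4 rose and 0 fell in p52, among them SPRED1 (0.85, adjusted p = 2.8e-06). In p50 2 of them rose and 0 fell, and in the RelB-labelled libraries 3 rose and 1 fell. In the cRel-labelled and RelA libraries 0 were called. Of 11 scaffolds, 7 rose and 2 fell in the RelB-labelled libraries. The JNK scaffold gene MAPK8IP3 was among those that rose (1.25 ± 0.08, adjusted p = 8.7e-12). In the cRel-labelled libraries 2 scaffolds rose, KSR1 and PEA15. In p50 4 rose and 2 fell, in p52 6 rose and 3 fell, and in RelA 0 were called. Of 8 other phosphatases that act on MAP kinases, 2 rose and 3 fell in p50, and 1 rose and 3 fell in p52. In the cRel-labelled and RelA libraries 0 of them were called. In the RelB-labelled libraries 1 rose and 5 fell. The one that rose was PPM1A (0.86 ± 0.06, adjusted p = 1.1e-10), and PPP2CA, the catalytic subunit of PP2A, fell in p50, p52 and the RelB-labelled libraries (-0.33, -0.39 and -0.60, adjusted p = 1.4e-04, 7.8e-06 and 8.0e-09).

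**Figure D5:**
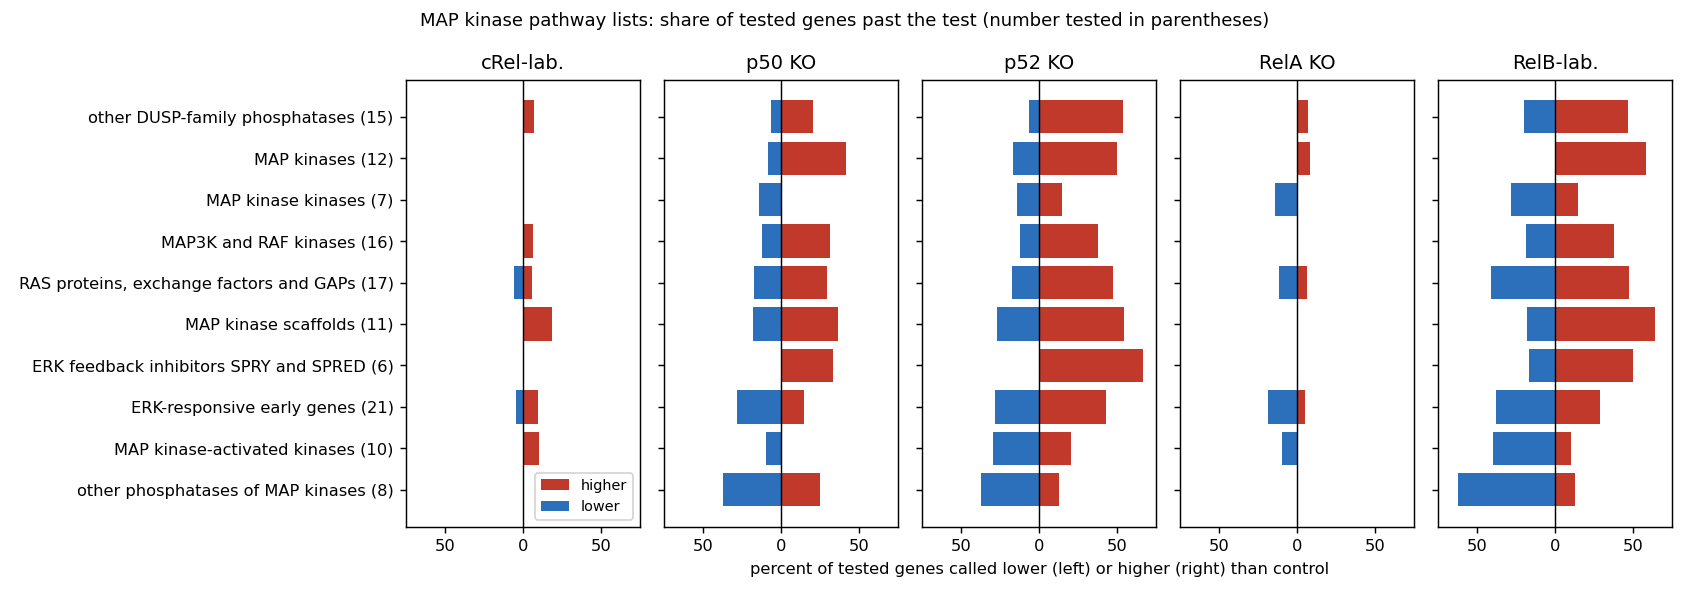
Percent of tested genes called lower (left of 0, blue) or higher (right of 0, red) than control (x axis) in 10 MAP kinase pathway lists (y axis, number tested in parentheses), with 1 panel per comparison. Calls were few in the cRel-labelled and RelA panels, where 6.09% and 5.55% of all genes were called, and fell on both sides in most lists of the p50, p52 and RelB-labelled panels.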

How the data were processed

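The submitters' processing notes name STAR 2.5.2b, a read aligner, featureCounts 1.5.1, a read counter, DESeq2 1.14.1 and the build GRCh37. Those notes, as used here, name no annotation, filter or strand setting. The deposited values are a normalised signal: every one of the 308790 was a whole number of reads times 1 factor per library (tolerance 0.001 reads), so reads could be recovered. No 2 libraries of a group agreed within counting noise. Groups came from the sample titles. limma 3.58.1 (trend, R 4.3.3) was fitted to log2(value + 1) of 12381 genes with a mean of at least 10, as 1 model of the 18 libraries without a replicate block, two-sided, with Benjamini-Hochberg adjustment within each comparison. The script was tested on simulated data. Alternatives were other pseudocounts (0.5 and 5), no filter, a mean of at least 100, TMM scaling, quantile normalization, edgeR 4.0.16, DESeq2 1.42.0, a replicate block, fits of only the groups compared and each library left out; taking out a length trend and leaving out 3 libraries were added after seeing the data.

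The genes and lists were chosen with earlier results of these data known. From each pathway list the text names at most 1 called gene per comparison, that with the smallest adjusted p and a mean of at least 100, MAPK3, MAPK8, MAPK9 and MAPK14 always, single genes behind a count, and for 3 members the 3 nearest profiles. A gene that the rule named is not reported here. Exonic lengths came from GENCODE 29 by gene identifier. Other DUSP genes share the phosphatase domain, and the notes do not say how reads fitting several genes were counted.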

Additional observations from a re-analysis of the deposited data

How the results depend on the processing

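Of the 20 calls of single genes against control, 17 were made under all 30 alternatives. The other 3 were DUSP1 in the RelB-labelled libraries, DUSP2 in p50 and DUSP16 in the cRel-labelled libraries. Besides the left-out libraries given with each gene, DUSP2 in p50 lost its call under quantile normalization (-0.15, limma adjusted p = 0.151), in a fit of only the groups compared (0.0582) and with the length trend taken out (-0.18, 0.0518). DESeq2 called 5 genes in the cRel-labelled comparison, against 3 in limma. With each library left out in turn, the number of genes called was 2 to 4 in the cRel-labelled, 4 to 5 in the p50, 5 in the p52, 1 in the RelA and 5 to 6 in the RelB-labelled comparison, 7 in the F-test and 47 to 50 over the pairs of knockouts. No called difference changed direction. Differences that were not called changed sign for DUSP1 in p50 without p50 library 2 (0.0027), DUSP1 in p52 with the length trend taken out (0.021) and DUSP4 in p52 under quantile normalization (0.072). DUSP16 in RelA changed sign under TMM scaling (0.0024), quantile normalization (0.016) and edgeR (0.0077), and without control library 1 (0.081), control library 2 (0.030) or RelA library 2 (0.070). With libraries left out in turn it ranged from -0.11 to 0.081. The cause was not tested. With the replicate number as a replicate block, 4 genes were called in the cRel-labelled comparison, DUSP4 being added (0.25, adjusted p = 0.0298), and the counts against control in the 4 other comparisons did not change. The labels do not tie equal numbers together, and in 0 of the 5 knockouts did all 3 libraries deviate together with the control of the same number (correlation above 0.1). For 16 of the 18 libraries the closest library of another group had the same number, which is a hint from the data and not from the design. Depth limits DUSP6, whose 33 reads give no comparison, and DUSP1, at 366 reads over the 3 control libraries.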
